A study of Mus musculus with 57 samples.

Results

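The genes described here are 9 pluripotency factors of the early mouse embryo, Pou5f1, Nanog, Sox2, Klf2, Klf4, Klf17, Esrrb, Tdgf1 and Zfp42. They were taken by name through the Ensembl identifiers of the expression table, where each had 1 row, 9 of 59119 rows in all. Total RNA was sequenced from MII oocytes and embryos in 57 samples that form 18 groups. The stage series came from wild-type C57BL/6 and held MII oocytes and 7 embryo stages: zygote, E2-cell (called early 2-cell here), L2-cell (late 2-cell), 4-cell, 8-cell, morula and blastocyst. The other series came from BDF1 embryos: wild type at 14, 17 and 20 hours after fertilization, a knockdown of the long noncoding RNA LncR-3363, and a CRISPR knockout of MT2Mm, a long terminal repeat of the MERVL retrovirus family. The knockdown embryos (KD-1cell and KD-2cell) received an antisense oligonucleotide at 20 uM, and the knockout embryos a guide RNA at 150 ng/uL with Cas9 mRNA at 100 ng/uL. Both were injected into MII oocytes at 5 to 10 pL, and the oocytes were fertilized in vitro with BDF1 sperm. The mice of the knockout experiment were 6 to 8 weeks old. Its embryos were read at a late 1-cell (Late1c) and an early 2-cell (Early2c) stage. The labels do not say at which stage the LncR-3363 embryos were collected, nor whether the controls of either experiment were injected. Cas9 injection gives embryos that can be mosaic, and no row of the table measures the targeted repeat itself.

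The inner cell mass is the group of cells inside the blastocyst that gives rise to the embryo proper. Pou5f1 (OCT4) and Sox2 are transcription factors that bind DNA as partners, and with Nanog they form the core of a network that keeps embryonic stem cells pluripotent. Klf2 and Klf4 are zinc finger factors, and Esrrb is an orphan nuclear receptor, that act in the same network in naive stem cells. Klf17 is a relative known from oocytes and early embryos. Zfp42 (REX1) is a zinc finger protein used as a marker of the naive state, and Tdgf1 (Cripto) is a coreceptor at the cell surface for Nodal, a ligand of the TGF-beta family.

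Levels are FPKM, in which fragments are counted relative to transcript length and library size, so that genes can be set side by side. Changes are differences of log2(FPKM + 0.5), later or treated minus other, with their standard error (SE), and p-values are from limma with Benjamini-Hochberg adjustment over all rows tested. A gene is said to rise or fall where the adjusted p was under 0.05. Each stage had 2 columns of values, and the labels do not say whether they came from separate matings, so the p-values measure the spread between these samples only. Read counts were not used here, so no library's depth is known. A library had 10704 to 12892 rows of 1 FPKM or more, and log2 levels of replicates correlated at 0.9565 to 0.9936. Libraries were made from whole embryos and no sample is named as dissected inner cell mass, so that the genes' place within the embryo was not measured, and at the blastocyst stage fewer cells of a type and less RNA per cell cannot be told apart. The summed level of 12 oocyte markers (zona and oocyte factor genes) was 4570 to 4725 FPKM in the MII oocyte and 8.02 to 8.78 in the blastocyst, and that of 12 trophectoderm markers was 14.8 to 15.0 and 1470 to 1575 FPKM, in the order of the stage labels. Of 12 cumulus and granulosa cell markers, at most 1 reached 1 FPKM at any of the 8 stages. At 20 hours after fertilization 4 of these 12 markers did, against 1 at 17 hours. Their summed level was 9.17 to 9.18 FPKM at 20 hours and 5.95 to 6.20 at 17 hours. The part of such cells in the changes between these times was not tested.

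In the GENCODE annotation of mouse build GRCm38 the 9 members are protein-coding genes on 7 chromosomes. Pou5f1 lies at chr17:35506018-35510772 (plus strand, 5 exons in its longest transcript), Nanog at chr6:122707489-122714633 (plus, 4 exons) and Sox2 at chr3:34650405-34652461 (plus, 1 exon). Klf2 lies at chr8:72319033-72321656 (plus, 3 exons) and Zfp42 on the same chromosome at chr8:43295063-43306980 (minus, 5 exons). Klf4 at chr4:55527143-55532466 (minus, 5 exons) and Klf17 at chr4:117757836-117765648 (minus, 3 exons) share a chromosome as well. Esrrb lies at chr12:86361117-86521628 (plus, 7 exons) and Tdgf1 at chr9:110939603-110946158 (minus, 6 exons).

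The promoters of Nanog, Zfp42 and Klf17 are shown because the first 2 genes were switched on from almost nothing while Klf17 was lost over the same stages. The 250 bases before the start site are from RefSeq for mouse build GRCm38.p6, 5′ to 3′ on the strand of the gene. Capitals mark matches, on either strand, to the OCT4 octamer core ATGCAAA, the SOX core ACAATG, or the KLF boxes CCCCACCC and CCACACCC. Nanog lies on the plus strand (chr6:122707239-122707488), Zfp42 on the minus strand (chr8:43307010-43307259) and Klf17 on the minus strand (chr4:117765667-117765916).
Nanog: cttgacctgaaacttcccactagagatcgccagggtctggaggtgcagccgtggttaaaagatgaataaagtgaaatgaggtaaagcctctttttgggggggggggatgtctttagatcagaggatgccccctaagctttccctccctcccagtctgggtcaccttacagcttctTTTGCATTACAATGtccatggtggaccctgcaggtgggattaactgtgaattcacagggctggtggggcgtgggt
Zfp42: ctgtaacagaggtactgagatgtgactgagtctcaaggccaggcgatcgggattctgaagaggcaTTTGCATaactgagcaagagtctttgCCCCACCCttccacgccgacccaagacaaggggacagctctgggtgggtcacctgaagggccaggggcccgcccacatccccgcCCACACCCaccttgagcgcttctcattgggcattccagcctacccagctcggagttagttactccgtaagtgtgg
Klf17: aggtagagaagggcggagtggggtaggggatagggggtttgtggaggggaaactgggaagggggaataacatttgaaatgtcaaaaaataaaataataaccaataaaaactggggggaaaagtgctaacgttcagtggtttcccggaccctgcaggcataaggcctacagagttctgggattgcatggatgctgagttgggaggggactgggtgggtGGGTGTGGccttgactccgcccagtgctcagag
In Nanog an octamer core on the reverse strand and a SOX core stood side by side, from base -75 to -62 before the start, as the joint motif TTTGCATNACAATG, which overlaps both. Of 32851 promoter windows of 300 bases in the RefSeq table, 2 held this joint motif, and both are windows of the Nanog gene. Only this exact string was searched, on both strands, without variant letters, other spacings or the other order of the cores. So long an exact string is rare in any windows, and its rarity does not set Nanog apart from other genes. The upstream bases of Zfp42 held an octamer core at -185 to -179, CCCCACCC at -159 to -152 and CCACACCC at -75 to -68. Those of Klf17 held CCACACCC on the reverse strand at -33 to -26. Single motifs were common: 4.627% of all windows held the octamer core, 12.569% the SOX core, 9.988% CCCCACCC and 3.562% CCACACCC. Among the other members, the Sox2 window held an octamer core at -99 to -93, and that of Esrrb held CCCCACCC at -39 to -32. Past the start site, SOX cores on the reverse strand lay at 33 to 38 in Esrrb and at 23 to 28 in Klf17. The windows of Pou5f1, Klf2, Klf4 and Tdgf1 held none of these octamer, SOX or KLF motifs, although Tdgf1 too was switched on from almost nothing. The Sox2, Klf2 and Klf4 windows were rich in CpG, with 27, 32 and 40 CpG in 300 bases. The others had 4 in Nanog, 6 in Klf17, 7 in Esrrb and in Tdgf1, and 11 in Pou5f1 and in Zfp42. The median of all windows was 7, with an upper quartile of 20. None of the 9 windows held the ESRRB motif CAAGGTCA (both strands, 1.559% of all windows) or, on the strand of the gene, TATAAA (8.319%). The RefSeq start used for Sox2 lies 410 bases from that of the GENCODE annotation, and for the other 8 genes the gap was 29 bases or less. A match describes letters and does not show that a factor binds.

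The members fell into courses of different shape. Pou5f1 and Klf17 were maternal transcripts of high level, with 108 ± 2.81 and 237 ± 57.2 FPKM (SD, n = 2) in the MII oocyte. Esrrb was there at a lower level, 8.46 ± 2.09 FPKM, and the other 6 genes were under 2.5 FPKM in each MII library. From the late 2-cell to the 4-cell stage 9 of 9 members rose, as 30.2% of all 19692 rows tested did. From the morula to the blastocyst Nanog and Sox2 rose, with 22.4% of all rows, while 6 members fell, with 16.3% of all rows.

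**Figure D1:**
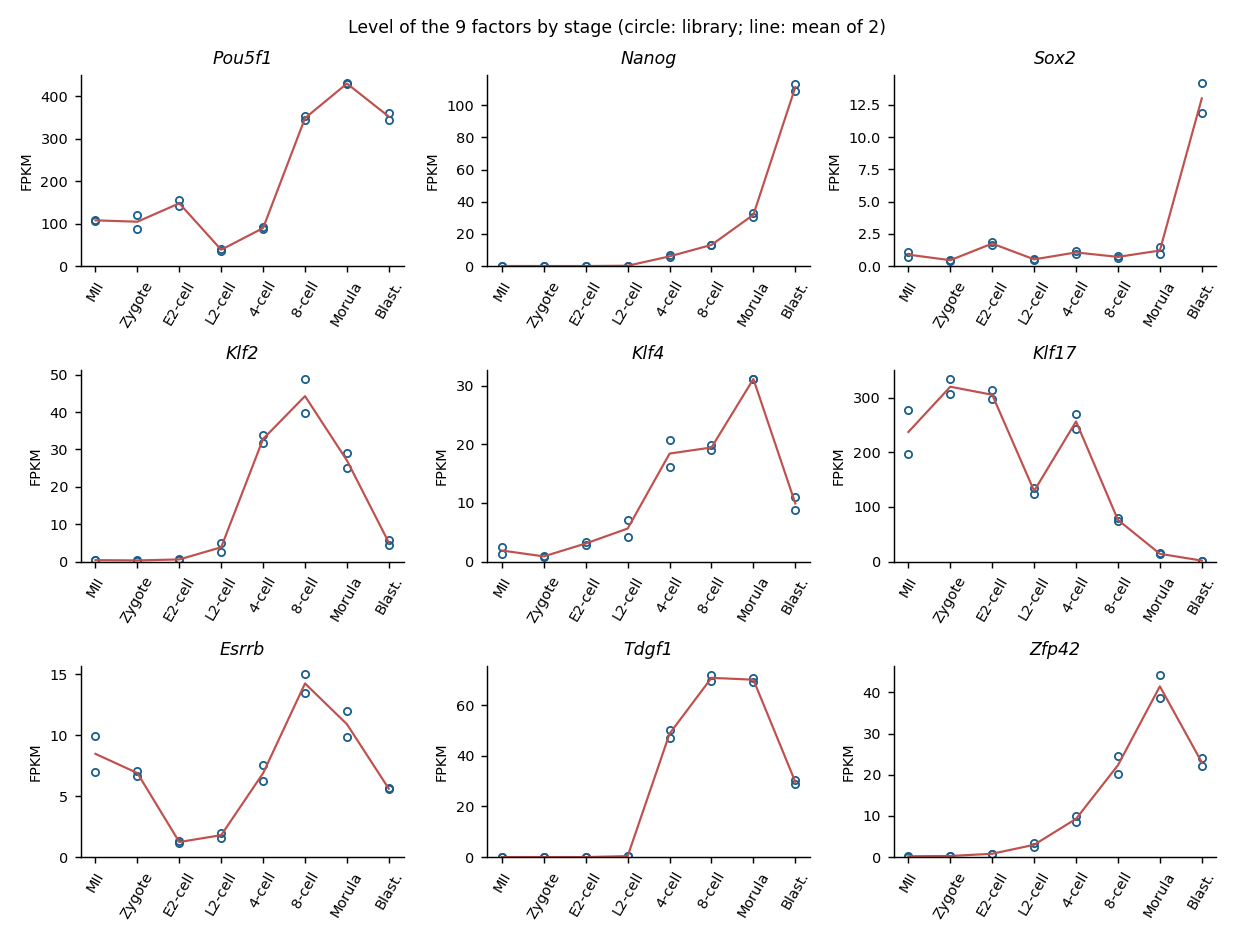
FPKM of each gene (vertical axes, linear, from 0, each with its own scale) by stage; circles are single libraries and the line joins the means of 2. Pou5f1 and Klf17 begin high, Nanog and Sox2 end at their highest level in the blastocyst, and Klf2, Klf4, Esrrb, Tdgf1 and Zfp42 are highest in the 8-cell embryo or morula.

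Pou5f1 stood at 105 and 109 FPKM in the 2 MII libraries, 87.9 and 121 in the zygote, and 154 and 141 in the early 2-cell embryo. It was 35.4 and 41.1 FPKM in the late 2-cell embryo and 87.5 and 91.2 in the 4-cell embryo. It then reached 344 and 352 FPKM in the 8-cell embryo, 428 and 431 in the morula, and 360 and 343 in the blastocyst. The late 2-cell libraries were thus the lowest of the series, with no overlap with either neighbour. Pou5f1 rose by 0.52 (SE 0.15, adjusted p = 0.0179) from zygote to early 2-cell, fell by 1.94 (SE 0.15, adjusted p = 7.06e-07) to the late 2-cell, and rose by 1.22 (SE 0.15, adjusted p = 5.31e-05) and 1.96 (SE 0.15, adjusted p = 1.37e-05) at the next 2 steps. The first rise was not called without zygote library 1 (0.29, adjusted p = 0.0606) or early 2-cell library 1 (0.45, adjusted p = 0.101). The values for morula against 8-cell (0.30, adjusted p = 0.208) and blastocyst against morula (-0.29, adjusted p = 0.177) did not pass. The libraries did not overlap at either step, but with 2 libraries a group this is no test of a change. With scaling by the median of ratios the value for blastocyst against morula was -0.50 (adjusted p = 0.0165).

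Nanog, the homeobox factor of the core network, was listed at 0.02 and 0 FPKM in the MII oocyte and at 0 in all zygote and early 2-cell libraries. It was 0.27 and 0.07 FPKM in the late 2-cell embryo, 5.44 and 6.54 in the 4-cell, 13.3 and 12.96 in the 8-cell embryo, 33.1 and 30.6 in the morula and 113 and 109 in the blastocyst. From the late 2-cell stage on, each stage stood above the one before with no overlap. Its 4-cell mean was 35.2-fold the late 2-cell mean (3.29, SE 0.15, adjusted p = 4.97e-08). That fold was 88.3 without late 2-cell library 1 and 22.0 without library 2. It rose by 1.08 (adjusted p = 0.000304), 1.25 (adjusted p = 0.000176) and 1.79 (adjusted p = 2.31e-06) at the next 3 steps, each with an SE of 0.15. Against the early 2-cell libraries, all listed at 0, the late 2-cell value passed (0.41, adjusted p = 0.0278, a fitted value that depends on the pseudocount) but not without late 2-cell library 1 (0.18, adjusted p = 0.265), nor with a pseudocount of 1 FPKM (adjusted p = 0.0979). Nanog was the only member that rose at each of the 4 steps from the late 2-cell stage to the blastocyst.

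Sox2, the partner of OCT4, stayed low up to the morula. Its libraries read 0.67 and 1.09 FPKM in the MII oocyte, 0.48 and 0.42 in the zygote, 1.63 and 1.85 in the early 2-cell, 0.46 and 0.57 in the late 2-cell embryo. They read 1.17 and 0.93 FPKM in the 4-cell, 0.63 and 0.78 in the 8-cell embryo, 1.47 and 0.93 in the morula, and 11.8 and 14.2 in the blastocyst. Among the stages only the blastocyst libraries were above 2 FPKM, 10.8-fold the morula mean (3.0, SE 0.19, adjusted p = 3.64e-07). A small rise to the early 2-cell stage (1.24, SE 0.19, adjusted p = 0.000339) was followed by a fall to the late 2-cell stage of 1.14 (SE 0.19, adjusted p = 0.000263). The rise to the 4-cell stage (0.61, SE 0.19, adjusted p = 0.0186) was not called under either other scaling (0.46 and 0.34, adjusted p = 0.0654 and 0.169), nor without late 2-cell library 1 (adjusted p = 0.0915) or 4-cell library 3 (adjusted p = 0.117). Sox2 has 1 exon and lies inside the noncoding gene Sox2ot, whose level was at most 0.132 FPKM in any library.

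Klf2 and Klf4 followed each other most closely of all pairs (r = 0.9553 over the 8 stage means of log2 values, a description with no test). Klf2 was at 0.21 to 0.76 FPKM in the 6 libraries up to the early 2-cell stage, 4.97 and 2.67 in the late 2-cell embryo, 33.8 and 31.8 in the 4-cell, 48.8 and 39.7 in the 8-cell embryo. It was 29.0 and 25.1 FPKM in the morula and 4.49 and 5.64 in the blastocyst. The 4-cell and 8-cell libraries were thus the highest, and the blastocyst libraries were back near the late 2-cell level. Klf2 rose by 2.00 (SE 0.26, adjusted p = 3.93e-05) and 3.0 (SE 0.26, adjusted p = 4.01e-06) at the late 2-cell and 4-cell steps. It fell by 2.31 (SE 0.26, adjusted p = 3.04e-05) from morula to blastocyst.

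Klf4 was present earlier than Klf2, at 1.32 and 2.44 FPKM in the MII oocyte, 0.76 and 0.9996 in the zygote and 2.84 and 3.32 in the early 2-cell embryo. It was 7.14 and 4.13 FPKM in the late 2-cell, 16.2 and 20.7 in the 4-cell, 19.9 and 19.0 in the 8-cell embryo, 31.2 in both morula libraries and 8.82 and 11.0 in the blastocyst. Its highest mean was in the morula and that of Klf2 in the 8-cell embryo, and the 4-cell and 8-cell libraries of Klf4 overlapped. Morula against 8-cell was not called for Klf4 (0.67, SE 0.26, adjusted p = 0.103) or for Klf2 (-0.70, SE 0.26, adjusted p = 0.0874). Nor was 8-cell against 4-cell for Klf2 (0.42, SE 0.26, adjusted p = 0.252), so the order of these highest stages describes means only. Klf4 rose by 1.38 (SE 0.26, adjusted p = 0.00137) from zygote to early 2-cell and by 1.66 (SE 0.26, adjusted p = 0.000275) from late 2-cell to 4-cell. It fell by 1.61 (SE 0.26, adjusted p = 0.000466) from morula to blastocyst. The step from early to late 2-cell (0.73, adjusted p = 0.0274) was not called without late 2-cell library 1 (0.37, adjusted p = 0.262) or either early 2-cell library (adjusted p = 0.124 and 0.0525), nor with scaling by the median of ratios (0.61, adjusted p = 0.0512).

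Klf17 ran the other way. It was 278 and 197 FPKM in the MII oocyte, 306 and 334 in the zygote, 314 and 297 in the early 2-cell, 134 and 124 in the late 2-cell and 242 and 271 in the 4-cell embryo. It was 79.1 and 73.4 FPKM in the 8-cell embryo, 15.0 and 13.3 in the morula and 1.60 and 1.81 in the blastocyst. The blastocyst mean was 188-fold below that of the zygote. Klf17 fell by 1.24 (SE 0.16, adjusted p = 3.74e-05) to the late 2-cell stage and rose by 0.98 (SE 0.16, adjusted p = 0.000351) to the 4-cell stage. It then fell by 1.74 (adjusted p = 3.24e-05), 2.39 (adjusted p = 8.27e-06) and 2.73 (adjusted p = 1.91e-07) at the last 3 steps, each with an SE of 0.16. Its correlation with each of the other 8 members over the stage means was negative, from -0.254 with Esrrb to -0.8733 with Nanog.

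Within the KLF family the makeup changed with stage. Klf17 made up 74.4% ± 5.63 (SD, n = 2) of the summed level of the 17 KLF genes in the MII oocyte, 78.8% ± 0.528 in the zygote and 77.2% ± 0.450 in the early 2-cell embryo. Its share was 52.3% ± 1.50 in the late 2-cell, 56.7% ± 1.78 in the 4-cell and 28.3% ± 0.172 in the 8-cell embryo, 5.90% ± 0.314 in the morula and 0.894% ± 0.0445 in the blastocyst. Klf5, known for its role in both trophectoderm and inner cell mass, took the first place in the morula with 32.8% ± 1.25 and kept it in the blastocyst with 35.2% ± 0.503. In the morula Klf4 and Klf2 followed with 13.02% and 11.3%. In the blastocyst Klf9 (17.5%) and Klf6 (14.8%) stood above Klf4 (5.18%) and Klf2 (2.65%). Klf6 was 0.522 ± 0.118 FPKM in the morula and 28.3 ± 0.124 in the blastocyst (4.82, SE 0.17, adjusted p = 6.54e-09). Of the 11 other KLF genes tested, the 3 members left out, 6 rose and 2 fell from late 2-cell to 4-cell, where 30.2% of all rows rose and 26.2% fell.

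**Figure D2:**
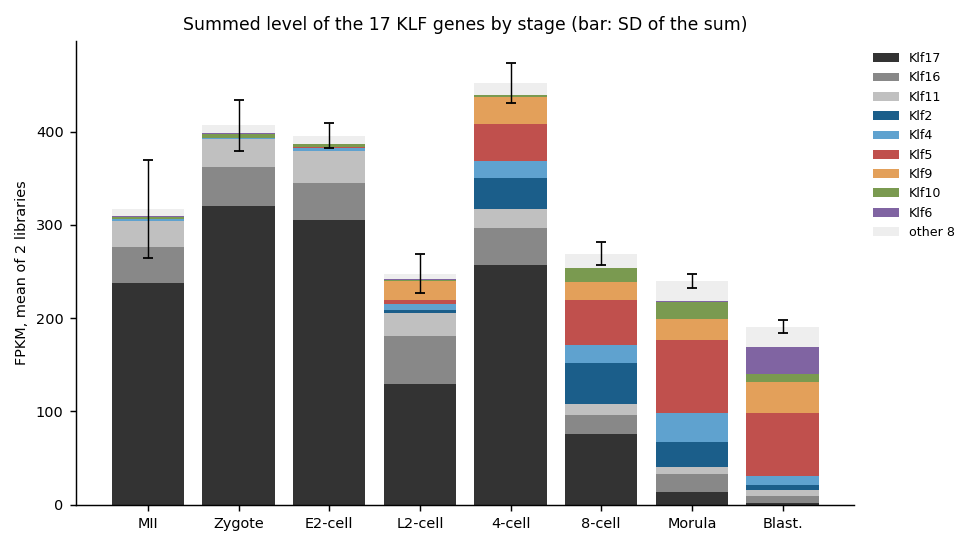
Summed FPKM of the 17 KLF genes (vertical axis, linear) by stage, as stacked means of 2 libraries, with the SD of the sum as a bar; 9 genes have a colour and the other 8 are drawn together. Klf17 fills most of the bar up to the 4-cell stage, and Klf5 is the largest part in the morula and blastocyst.

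Esrrb had a maternal and an embryonic phase with a gap between them. It was 6.98 and 9.94 FPKM in the MII oocyte, 6.67 and 7.09 in the zygote, 1.15 and 1.32 in the early 2-cell and 2.01 and 1.59 in the late 2-cell embryo. It was 6.22 and 7.54 FPKM in the 4-cell, 15.0 and 13.5 in the 8-cell embryo, 11.9 and 9.84 in the morula and 5.57 and 5.62 in the blastocyst. The early 2-cell libraries were the lowest and the 8-cell libraries the highest, 11.5-fold apart in their means. Esrrb fell by 2.09 (SE 0.17, adjusted p = 2.96e-06) from zygote to early 2-cell, rose by 1.68 (SE 0.17, adjusted p = 1.32e-05) to the 4-cell and 1.0 (SE 0.17, adjusted p = 0.00135) to the 8-cell stage, and fell by 0.90 (SE 0.17, adjusted p = 0.00164) to the blastocyst. The late against early 2-cell value was 0.40 (SE 0.17, adjusted p = 0.0603). It passed with the columns scaled to their protein-coding sum (0.60, adjusted p = 0.0144). Its relatives differed in course: Esrrg was 6.76 ± 0.0901 FPKM in the early 2-cell embryo and 0.267 ± 0.00144 in the 8-cell embryo, while Esrra was 0.257 ± 0.00124 and 22.1 ± 0.470. Esrra rose by 3.28 (SE 0.11, adjusted p = 1.49e-09) to the late 2-cell stage and by 1.32 (SE 0.11, adjusted p = 3.51e-06) to the 4-cell stage, where Esrrg fell by 1.66 (SE 0.13, adjusted p = 2.21e-06).

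Zfp42 was at 0.13 and 0.26 FPKM in the MII oocyte, 0.22 and 0.30 in the zygote, 0.83 and 0.78 in the early 2-cell, 3.42 and 2.55 in the late 2-cell and 10.0 and 8.57 in the 4-cell embryo. It was 20.2 and 24.5 FPKM in the 8-cell embryo, 38.6 and 44.3 in the morula and 22.0 and 24.0 in the blastocyst. No 2 neighbouring stages overlapped from the zygote on, and each stage up to the morula was above the one before. Zfp42 rose at each of the 5 steps from zygote to morula, by 0.78, 1.41, 1.497, 1.22 and 0.88 (each SE 0.16, with adjusted p of 0.00262, 1.5e-05, 1.89e-05, 0.000282 and 0.00293). At the first of these steps each library was under 1 FPKM. The gene passed the filter there only through later stages, and the size of that change depends on the pseudocount. Zfp42 fell by 0.83 (SE 0.16, adjusted p = 0.00168) to the blastocyst. Its copy Zfp42-ps1 was at 0.961 ± 0.456 FPKM in the morula and 2.11 ± 0.587 in the blastocyst, and reads may be shared between the copies.

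Tdgf1 was at 0.03 FPKM or less in each library up to the early 2-cell stage and at 0.50 and 0.26 in the late 2-cell embryo. It was 50.4 and 47.2 FPKM in the 4-cell, 72.0 and 69.6 in the 8-cell embryo, 69.3 and 70.8 in the morula and 30.5 and 28.9 in the blastocyst. The 4-cell step was the steepest of any member at the 7 steps, and the 8-cell and morula libraries overlapped. The 4-cell mean was 128-fold the late 2-cell mean (5.82, SE 0.13, adjusted p = 6.01e-10). The step to the 8-cell stage (0.53, SE 0.13, adjusted p = 0.00851) was not called without 4-cell library 4 (0.49, adjusted p = 0.0616) or with a pseudocount of 0.1 FPKM (adjusted p = 0.082). Tdgf1 fell by 1.22 (SE 0.13, adjusted p = 1.76e-05) to the blastocyst. Its processed copy Tdgf1-ps1 reached 15.9 FPKM in 1 library with the same course, and reads may be shared between the copies.

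**Figure D3:**
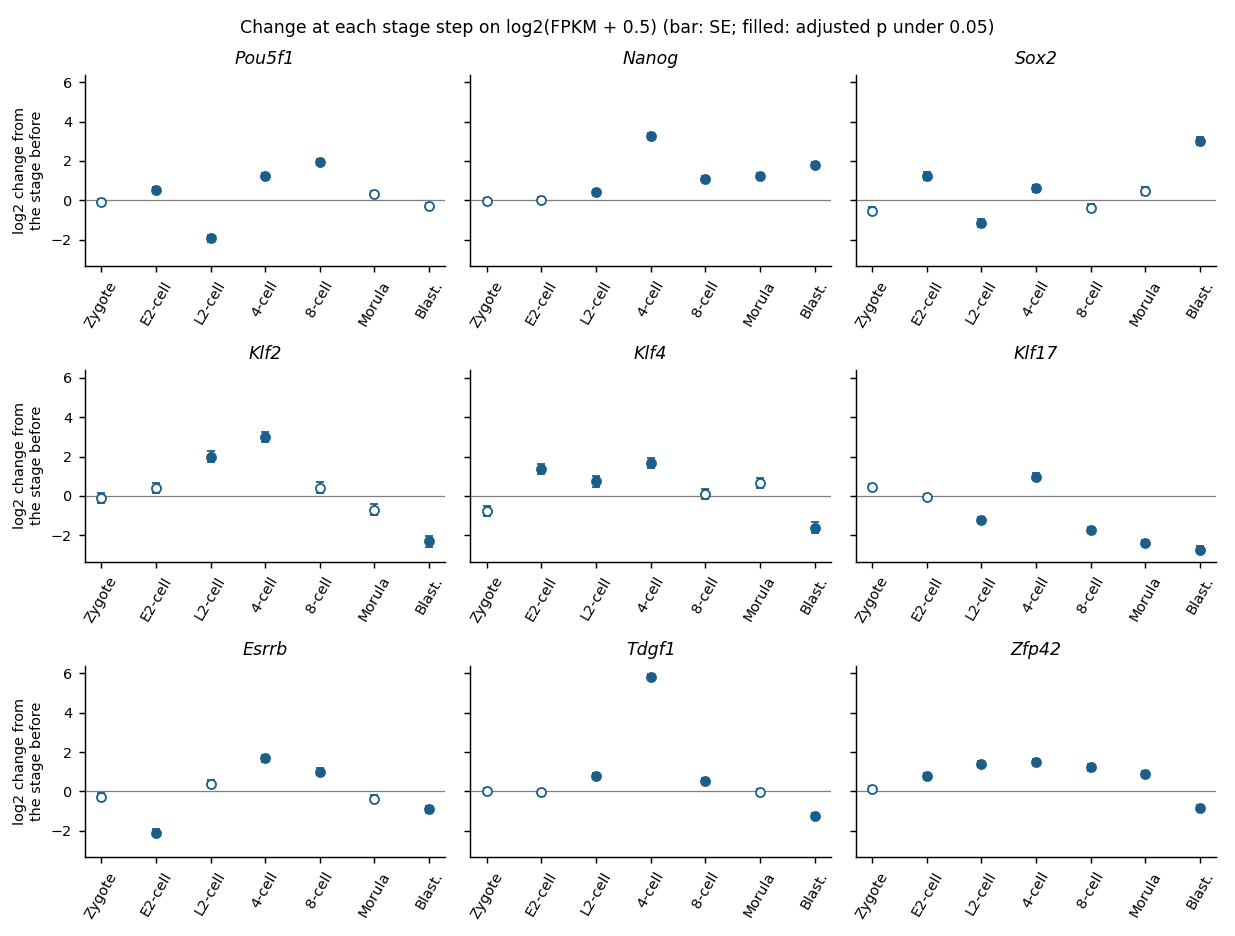
Difference of log2(FPKM + 0.5) from the stage before (vertical axis, the same in all panels) for each gene, named by the later stage, with the SE of the shared fit of 8 stages as a bar; filled circles passed an adjusted p of 0.05. All 9 circles at the 4-cell step are filled and above 0, and at the blastocyst step those of Nanog and Sox2 lie above 0 and 6 filled ones below.

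Step by step, the members' counts are to be read against the share of all rows that changed. From MII oocyte to zygote no member was called, with 3.76% of the rows tested (1.73% higher, 2.03% lower). Nanog, Tdgf1, Zfp42 and Klf2 were under 0.5 FPKM in all 4 libraries and passed the filter only through later stages, so this speaks of the other 5 genes alone. There were 3 members with an unadjusted p under 0.05, and leaving out MII library 1 gave 1 call, Klf17 (0.70, adjusted p = 0.0439). From zygote to early 2-cell, where Nanog and Tdgf1 were again at or near 0 in both groups, 5 were called, against 44.1% of all rows. Pou5f1, Sox2, Klf4 and Zfp42 went upward, with 17.9% of all rows, and Esrrb downward, with 26.2% (22.8% and 21.8% with scaling to the protein-coding sum). Zfp42, like the uncalled Klf2, was under 1 FPKM in each library of this step and passed the filter only through later stages. The size of its change depends on the pseudocount, so the count upward here is to be read without Zfp42. From early to late 2-cell 8 were called against 68.7% of all rows. Pou5f1, Sox2 and Klf17 went downward, with 37.6% of all rows, and Nanog, Klf2, Klf4, Tdgf1 and Zfp42 upward, with 31.1%. Nanog and Tdgf1 were under 1 FPKM in each library of this step and passed the filter only through later stages. The size of their changes depends on the pseudocount, so the count upward is to be read without them. From late 2-cell to 4-cell 9 of 9 were called, with 56.3% of all rows called, 30.2% upward and 26.2% downward (20.1% and 37.6% with scaling to the protein-coding sum). The median change of the 9 members there was 1.66, and that of all rows 0.00. From 4-cell to 8-cell 6 were called against 35.0%, 5 upward (13.4% of all rows) and Klf17 downward (21.6%). From 8-cell to morula 3 were called against 20.9%, Nanog and Zfp42 upward (8.39% of all rows) and Klf17 downward (12.5%). From morula to blastocyst 8 were called against 38.7% (with scaling by the median of ratios 17.8% of all rows upward and 19.9% downward), and the median change of the members was -0.90 beside 0.00 for all rows.

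The late 2-cell libraries stood apart in composition. Small and ribosomal RNA took 64.6% and 73.4% of their FPKM sum, against 51.8% and 52.6% in the early 2-cell and 29.4% and 26.9% in the 4-cell libraries. When the columns were scaled to their protein-coding sum, an alternative added after seeing the data, the median change of all rows went from -0.10 to 0.00 at the late 2-cell step and from 0.00 to -0.24 at the 4-cell step. The fall of Pou5f1 to the late 2-cell stage was then -1.72 and that of Klf17 -1.02 on the log2 scale, both still called. Their rises to the 4-cell stage were 0.73 (adjusted p = 0.00164) for Pou5f1 and 0.50 (adjusted p = 0.0135) for Klf17. At that step 8 of 9 members were then called, with Sox2 at 0.34 as the exception, while 20.1% of all rows were called upward and 37.6% downward, the reverse of the order without this scaling. Both late 2-cell columns carry 1 tag in their names, and both early 2-cell columns another, so stage and tag cannot be told apart at these steps. For early 2-cell against zygote, both early 2-cell columns share a tag with zygote library 1 alone. That fit is the one without zygote library 2, in which the zygote is 1 library assumed to vary like the other stages. Its values were 0.74 for Pou5f1 (SE 0.11, adjusted p = 0.000344) and -2.05 for Esrrb (SE 0.21, adjusted p = 2.64e-05). Without zygote library 1 instead, Pou5f1 was not called, as given above. For zygote against MII oocyte 1 library of each shared a tag, too few to read a change within it.

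The order of the members by level changed in the same period. From the MII oocyte to the 4-cell stage Klf17 was first and Pou5f1 next, with no overlap. In the MII oocyte they made up 66.6% and 30.1% of the summed level of the 9 genes. In the 8-cell embryo Pou5f1 came first (57.1% of the sum), followed by Klf17, Tdgf1, Klf2, Zfp42, Klf4, Esrrb, Nanog and Sox2, and no neighbours overlapped. In the morula the order was Pou5f1 (65.3%), Tdgf1, Zfp42, Nanog, Klf4, Klf2, Klf17, Esrrb and Sox2, with Nanog and Klf4 overlapping. In the blastocyst it was Pou5f1 (63.8%), Nanog (20.2%), Tdgf1, Zfp42, Sox2, Klf4, Esrrb, Klf2 and Klf17, with Esrrb and Klf2 overlapping. Klf17 thus went from first to last.

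The annotated genes most like each member over the 8 stage means, among 10895 rows searched, were Tsfm for Pou5f1 (r = 0.9691), Csf3r for Nanog (r = 0.9996), Lgals4 for Sox2 (r = 0.975), Klhl10 for Klf2 (r = 0.9959) and Bcas3 for Klf4 (r = 0.9897). They were Dym for Klf17 (r = 0.9945), Vrk1 for Esrrb (r = 0.9744), Sfn after the copy Tdgf1-ps1 for Tdgf1 (r = 0.997) and Gm2223 for Zfp42 (r = 0.9958). These values describe likeness over 8 points that share libraries. Csf3r, the receptor of a granulocyte growth factor, was highest in the blastocyst at 82.8 FPKM.

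Other factors of the network were read from a list of 20 transcription factors that holds no member, and 16 of them passed the filter. From late 2-cell to 4-cell 11 rose and 2 fell, with a median change of 1.304 beside 0.00 for all rows. Of all rows 30.2% rose and 26.2% fell there. Klf5 rose from 4.94 ± 1.05 to 39.4 ± 3.005 FPKM (adjusted p = 1.17e-07). Nr5a2, a nuclear receptor of the early embryo, rose from 19.8 ± 3.31 to 113 ± 30.6 FPKM (adjusted p = 7.08e-06). Tbx3 rose from 2.70 ± 0.768 to 11.6 ± 0.584 FPKM (adjusted p = 4.08e-06). Tfcp2l1, a factor of naive stem cells, came later: from 3.499 ± 0.470 FPKM in the 4-cell embryo it rose to 18.7 ± 1.74 at the 8-cell stage (adjusted p = 7.03e-06) and 80.9 ± 1.92 at the morula stage (adjusted p = 8.6e-06), and stood at 171 ± 0.964 in the blastocyst. From morula to blastocyst 7 of the 16 rose and 3 fell, against 22.4% and 16.3% of all rows. Mycn, Zfp281 and Stat3 were among those that rose, Stat3 from 2.94 ± 0.111 to 16.8 ± 0.549 FPKM (adjusted p = 2.71e-05).

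Among close relatives of Sox2, Sox15 rose from 5.65 ± 1.22 FPKM in the late 2-cell to 138 ± 8.06 in the 4-cell embryo (4.50, SE 0.28, adjusted p = 4.73e-07). Sox21 rose from 1.32 ± 0.459 to 18.9 ± 1.64 FPKM at the same step (3.43, SE 0.18, adjusted p = 1.4e-07). From the 4-cell stage to the morula the mean of each was above that of Sox2, which was 1.05 FPKM in the 4-cell embryo. In the blastocyst Sox15 had fallen to 12.7 ± 0.414 FPKM (-2.50, SE 0.28, adjusted p = 3e-05), near the 11.8 and 14.2 of Sox2. Yy1, whose gene family gave rise to Zfp42, rose from 3.86 ± 0.107 to 31.8 ± 2.37 FPKM at the late 2-cell step (adjusted p = 1.08e-08).

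Tdgf1 acts as a coreceptor in the Nodal pathway. Of 12 other pathway genes tested, 2 rose and 2 fell at the 4-cell step, where 30.2% of all rows rose and 26.2% fell. Their median change was 0.06, beside 0.00 for all rows. Nodal itself was at 0.259 FPKM or less in each stage mean, and its inhibitors Lefty1 and Lefty2 were at 0.122 and 0.0567 or less; these 3 genes were chosen after their values were seen. The ligand Gdf3 stood at 1.73 ± 0.292 FPKM at the 8-cell stage and rose to 6.42 ± 0.812 in the morula (adjusted p = 7.58e-05) and was 12.6 ± 0.829 in the blastocyst. From morula to blastocyst, where Tdgf1 fell, 7 pathway genes rose and 1 fell, against 22.4% and 16.3% of all rows. The type I receptor Acvr1b rose from 1.39 ± 0.136 to 10.8 ± 0.0296 FPKM (adjusted p = 3.97e-06) and the convertase Pcsk6 from 14.1 ± 1.51 to 29.1 ± 1.66 (adjusted p = 0.00144).

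**Figure D4:**
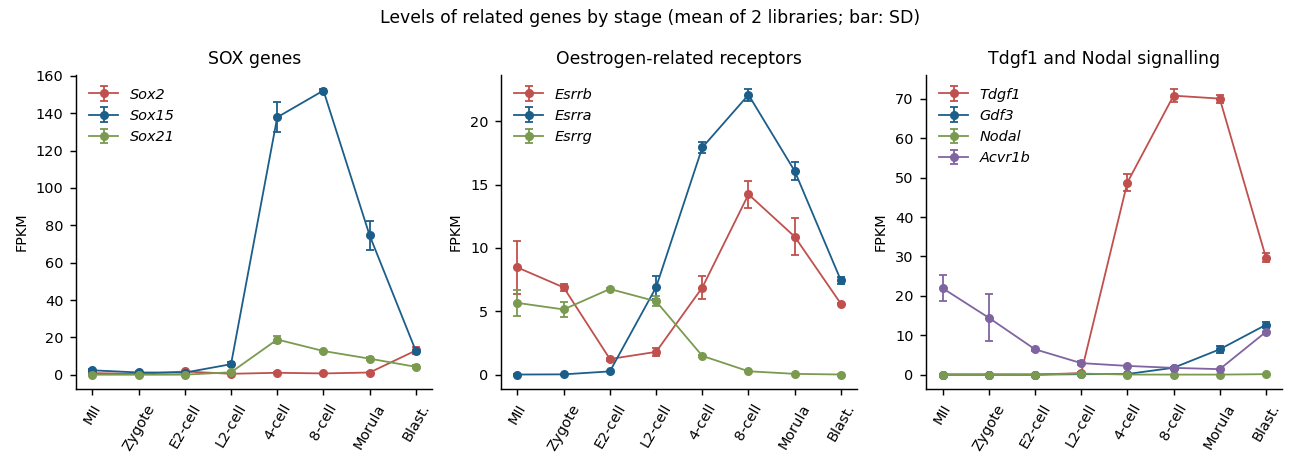
FPKM (vertical axes, linear, each panel with its own scale) by stage for SOX genes, oestrogen-related receptor genes and Tdgf1 with 3 Nodal pathway genes, as means of 2 libraries with the SD as a bar. Sox15 is above Sox2 from the 4-cell stage to the morula, Esrrg falls where Esrra is high, and Nodal stays near 0 while Tdgf1 is at 70.8 FPKM in the 8-cell embryo.

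In the LIF pathway, which maintains mouse stem cells through Stat3, the feedback inhibitor Socs3 rose from 2.49 ± 0.305 FPKM in the early 2-cell to 85.7 ± 1.74 in the late 2-cell embryo (4.85, SE 0.14, adjusted p = 4.8e-10). It was 158 ± 16.6 FPKM in the 8-cell embryo, 43.2 ± 3.11 in the morula and 1.21 ± 0.120 in the blastocyst (-4.67, SE 0.14, adjusted p = 2.62e-09 for the last step). Of the 10 pathway genes, all tested, 6 rose and 2 fell from morula to blastocyst, where 22.4% of all rows rose and 16.3% fell. Among 20 pluripotency-associated genes, 11 rose and 5 fell at the late 2-cell step and 10 rose and 4 fell at the 4-cell step. Of all rows 31.1% rose and 37.6% fell at the late 2-cell step, and 30.2% rose and 26.2% fell at the 4-cell step. Dppa4 rose from 4.56 ± 0.182 to 129 ± 13.3 FPKM (adjusted p = 3.34e-10) and Fbxo15 from 10.2 ± 0.774 to 161 ± 7.42 (adjusted p = 8.35e-10) at the first of these steps. The growth factor gene Fgf4, listed at 0 in the early 2-cell libraries, was at 9.97 ± 0.0360 FPKM in the late 2-cell embryo.

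In whole blastocysts the genes of the other lineages rose beside Nanog and Sox2. Of 10 trophectoderm markers tested 7 rose and 3 fell from morula to blastocyst, and of 9 primitive endoderm markers 7 rose and 2 fell. Of all rows 22.4% rose and 16.3% fell at this step. The summed levels of these 2 marker lists went from 201 to 215 FPKM in the morula to 1470 to 1575 in the blastocyst, and from 112 to 115 to 456 to 474 FPKM. Of the 12 trophectoderm markers 9 reached 1 FPKM in a blastocyst library, and of the 12 primitive endoderm markers 8 did. Krt8 rose from 19.7 ± 0.297 to 620 ± 34.3 FPKM (adjusted p = 4.27e-08) and Cdx2 from 24.8 ± 1.06 to 132 ± 0.133 (adjusted p = 2.3e-06). The part of these cells in the changes of the members at this step was not tested.

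In the hours after fertilization 4 members passed the filter, Pou5f1, Klf4, Klf17 and Esrrb. Klf17 was 247 and 243 FPKM at 14 hours, 279 and 281 at 17 hours and 314 and 309 at 20 hours. Esrrb was 7.69 and 7.46, then 6.89 and 6.12, then 5.36 and 5.32 FPKM. Klf4 was 2.98 and 3.49, then 2.198 and 2.15, then 2.71 and 2.90 FPKM. Klf17 libraries thus lay higher at each later time and Esrrb libraries lower, with no overlap. From 14 to 17 hours 2 of the 4 tested were called against 37.0% of 12834 rows (20.5% higher and 16.5% lower, or 14.6% and 21.01% with scaling by the median of ratios), Klf17 upward (0.19, SE 0.03, adjusted p = 0.00555) and Klf4 downward (-0.48, SE 0.09, adjusted p = 0.0105). The Klf4 call was lost without library 2 at 14 hours (adjusted p = 0.0586) or library 2 at 17 hours (adjusted p = 0.0536). From 17 to 20 hours 2 were called against 19.6% (5.13% higher and 14.5% lower, or 6.04% and 10.1% with that scaling), Klf17 upward (0.15, SE 0.03, adjusted p = 0.0233) and Esrrb downward (-0.26, SE 0.07, adjusted p = 0.0458). The Klf17 call was lost without any 1 of the 4 libraries (adjusted p of 0.07 to 0.129), and the Esrrb call without 3 of them (0.139 to 0.17). Small and ribosomal RNA took 34.5% and 36.4% of the FPKM sum at 14 hours and 46.1% and 46.7% at 20 hours. With the columns scaled to their protein-coding sum Klf17 was still called at both steps (0.18 and 0.19, adjusted p = 0.0104 and 0.0176) and Klf4 at the first (-0.49, adjusted p = 0.00863). Esrrb was then called at the first step (-0.22, adjusted p = 0.047) and not at the second (-0.23, adjusted p = 0.072). Nanog was at 0.08 FPKM or less and Tdgf1 at 0.06 or less at all 3 times.

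In the LncR-3363 experiment none of the 4 members tested was called, against 43.7% of 11492 rows (29.8% higher and 13.9% lower, or 20.5% and 20.2% with scaling by the median of ratios). Esrrb had an unadjusted p of 0.0316, and the call count was 1 with no filter. The columns used for this experiment carry another short name, and were linked to LncR-3363 only through the groups and numbers of samples. Klf17 ran from 303 over a median of 313 to 323 FPKM in the 4 controls and from 297 over 313 to 336 in the 4 KD-1cell libraries (0.01, SE 0.06, adjusted p = 0.928). Pou5f1 was 93.5 to 101 FPKM in the controls and 88.5 to 123 in the knockdown (0.07, SE 0.10, adjusted p = 0.56). Klf17 and Pou5f1 libraries of the 2 groups overlapped. Esrrb was 1.33, 1.64, 1.88 and 1.55 FPKM in the controls and 1.92, 1.97, 2.15 and 2.45 in the knockdown (0.32, SE 0.13, adjusted p = 0.0671), with no overlap. Sox2 did not reach the filter. It was 2.07, 1.23, 0.85 and 1.44 FPKM in the controls and 0.44, 0.51, 0.50 and 0.32 in the knockdown, again with no overlap. In the fit without a filter its change was -0.98 (SE 0.21, adjusted p = 0.02). The KD-2cell library, a single sample that entered no test, read 1.42 FPKM for Sox2. Among 7 Nodal pathway genes tested in this comparison 6 rose and 1 fell, with Smad4 at 5.91 ± 0.526 and 18.6 ± 1.44 FPKM (n = 4 each, 1.58, SE 0.09, adjusted p = 1.14e-06). Summed oocyte markers ran from 862 to 947 FPKM in the controls and from 1071 to 1344 in the knockdown, and their part in these results was not tested.

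The MT2Mm experiment compared knockout and control embryos at a late 1-cell and an early 2-cell stage. Of the members 5 passed its filter, Pou5f1, Sox2, Klf4, Klf17 and Esrrb. In the controls 4 of the 5 changed from late 1-cell to early 2-cell, against 79.2% of 13180 rows (33.5% higher, 45.7% lower). Pou5f1 rose from 78.9 ± 3.404 to 101 ± 6.32 FPKM (0.36, SE 0.06, adjusted p = 8.09e-05) and Klf4 from 5.03 ± 0.634 to 7.90 ± 0.496 (0.61, SE 0.10, adjusted p = 0.000115). Klf17 fell from 252 ± 11.4 to 183 ± 10.0 FPKM (-0.46, SE 0.05, adjusted p = 6.28e-06) and Esrrb from 4.06 ± 0.451 to 0.876 ± 0.0617 (-1.73, SE 0.11, adjusted p = 3.58e-08). In the C57BL/6 stage series Klf17 had an early 2-cell value of -0.07 against the zygote (adjusted p = 0.795). Sox2 rose there by 1.24 (SE 0.19, adjusted p = 0.000339), while in the controls its value was -0.05 (SE 0.18, adjusted p = 0.827). Pou5f1, Klf4 and Esrrb had the same signs in the stage series as in the controls. The difference between the series was not tested. Zfp42 did not reach the filter. It was 0.13, 0.22 and 0.22 FPKM in the late 1-cell controls and 0.70, 0.78 and 0.79 in the early 2-cell controls, and its change passed in the fit without a filter (0.87, SE 0.15, adjusted p = 0.000833).

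At the late 1-cell stage 0 of the 5 members were called between knockout and control, with 0.114% of all rows called (0.0455% higher, 0.0683% lower) and 0 of the 5 at an unadjusted p under 0.05. At the early 2-cell stage 3 of the 5 were called, against 49.0% of all rows (33.4% higher and 15.6% lower, or 23.7% and 25.5% with scaling by the median of ratios). Klf17 was 192, 172 and 186 FPKM in the controls and 263, 250 and 256 in the knockouts (0.48, SE 0.05, adjusted p = 1.87e-05). Klf4 was 7.58, 8.48 and 7.66 FPKM in the controls and 10.97, 12.6 and 11.1 in the knockouts (0.52, SE 0.10, adjusted p = 0.00103). Pou5f1 was 101, 95.1 and 108 FPKM in the controls and 87.4, 90.4 and 82.2 in the knockouts (-0.22, SE 0.06, adjusted p = 0.00596). For each of these 3 genes the libraries of the 2 groups did not overlap, and each call held without any 1 of the 6 libraries. The Klf17 level of the early 2-cell knockouts lay in the range of the late 1-cell libraries, 242 to 265 FPKM. Klf4, which rose in the controls from late 1-cell to early 2-cell, was above that in the knockouts, while Pou5f1, which rose as well, was below it.

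**Figure D5:**
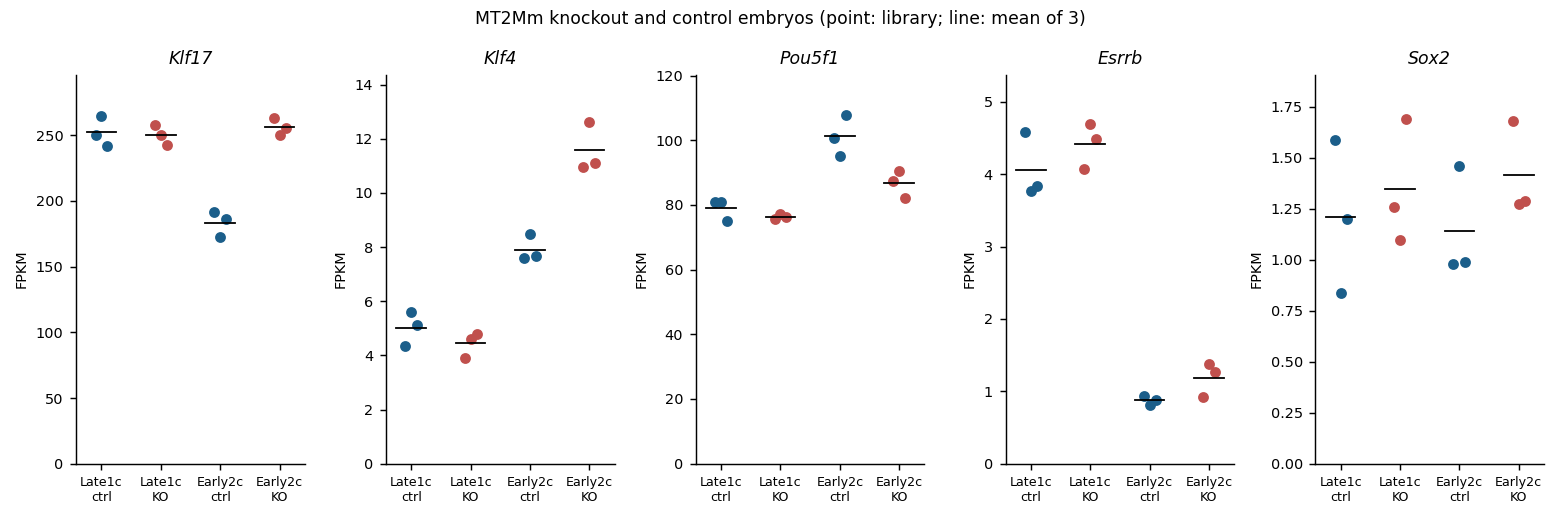
FPKM (vertical axes, linear, from 0) of the 5 members that passed the filter in the 4 MT2Mm groups, with 3 libraries each as points (blue, control; red, knockout) and their mean as a line. At the early 2-cell stage the knockouts lie above the controls for Klf17 and Klf4 and below them for Pou5f1, and at the late 1-cell stage the groups overlap for all 5.

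Esrrb was 0.93, 0.81 and 0.88 FPKM in the early 2-cell controls and 0.92, 1.38 and 1.27 in the knockouts (0.29, SE 0.11, adjusted p = 0.0553). It passed without knockout library 1 (0.41, adjusted p = 0.00848). Sox2 was 0.98, 1.46 and 0.99 FPKM in the controls and 1.68, 1.27 and 1.29 in the knockouts (0.23, SE 0.18, adjusted p = 0.324), with overlap in both genes. The knockout effect differed between the 2 stages for Klf17 (0.50, SE 0.08, adjusted p = 0.000405) and Klf4 (0.68, SE 0.14, adjusted p = 0.00262), 2 of 5 members against 37.3% of all rows (25.7% higher and 11.6% lower, or 17.3% and 19.1% with scaling by the median of ratios). For Pou5f1 the difference was -0.17 (SE 0.08, adjusted p = 0.102). It passed with scaling by the median of ratios (-0.35, adjusted p = 0.0138) and to the protein-coding sum (-0.24, adjusted p = 0.0335). Small and ribosomal RNA took 61.1% to 63.3% of the FPKM sum in the early 2-cell controls and 56.3% to 57.5% in the knockouts. With the columns scaled to their protein-coding sum, the knockout changes were 0.43 for Klf17, 0.47 for Klf4 and -0.28 for Pou5f1, each still called. Summed oocyte markers were 801 to 892 FPKM in the early 2-cell controls and 920 to 1025 in the knockouts, and their part in these results was not tested.

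Around the members in the early 2-cell knockouts, 2 of the 6 other KLF genes tested rose and 0 fell, and 5 of 10 network transcription factors rose and 2 fell. The medians were 0.18 and 0.25, beside 0.11 for all rows. Of all rows 33.4% rose and 15.6% fell in this comparison, so the KLF count upward was near the share of all rows. Nr5a2 was 8.13 ± 0.393 FPKM in the controls and 11.3 ± 0.196 in the knockouts (0.45, SE 0.05, adjusted p = 3.47e-05), and Gbx2 was 45.6 ± 2.28 and 60.9 ± 2.29 (0.42, SE 0.05, adjusted p = 2.17e-05). Gbx2 and Sall4 fell in the controls from late 1-cell to early 2-cell, as Klf17 did. Of the 10 network transcription factors tested, 5 rose and 4 fell at that step in the controls. Between early 2-cell control and knockout, Socs3 rose from 1.55 ± 0.219 to 6.11 ± 0.150 FPKM (1.69, SE 0.14, adjusted p = 2.63e-06). There 4 of the 8 LIF pathway genes tested fell, against 15.6% of all rows. Among them was Jak2 with 172 ± 8.50 and 138 ± 3.13 FPKM (-0.31, SE 0.05, adjusted p = 0.00043).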

How the data were processed

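Total RNA was sequenced with paired reads of 150 bases from about 150 to 200 embryos per stage sample, per the labels. The deposited values are FPKM made by the authors. For normalization and filters, details were not given in the sources used here. Per the submitters' processing notes, the tools were cutadapt 1.18, HISAT2 2.1.0, Cufflinks, StringTie 1.3.4d, Cuffdiff 2.2.1, with build GRCm38. The labels name 2 kits, TruSeq and SMARTer Stranded Total RNA, without the samples of each. All 43 columns were matched by name to samples or groups, and 0 were left unmapped. Column names with the words merge, cat or add, and numbered tags in the early stages, were read only as names. The LncR-3363 columns were matched to groups alone. Of 54446 rows with Ensembl identifiers, 54409 were found in the GENCODE annotation, and 9 of 9 members in the RefSeq promoter table.

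Rows of at least 1 FPKM in as many libraries as the smallest group entered limma 3.58.1 (R 4.3.3, eBayes with trend) as log2(FPKM + 0.5), with Benjamini-Hochberg adjustment: the 8 stages in 1 fit, the 3 times in 1, KD-1cell against Ctrl, and the 4 MT2Mm groups with their interaction. Other steps used Python 3.11.15, pandas 2.3.3, NumPy 2.4.6, SciPy 1.17.1 and Matplotlib 3.10.9. The step was tested on simulated data. The same was run with pseudocounts of 0.1 or 1 FPKM, without the filter, with median-of-ratios scaling, a replicate block, fits of 2 groups alone, columns of a shared tag, KD-2cell as an added group, and each replicate left out; scaling to the protein-coding sum was added after seeing the data. The members and gene lists were chosen with earlier results of these data known. Genes of the lists could be named if called and among the 4 of largest change in a list and comparison, if the higher mean was 5 FPKM or more; for each member 3 genes of most similar course could be named. The text prints some of these, and levels of Nodal, Lefty1 and Lefty2 were added after seeing them. Proteins were not used here.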

Additional observations from a re-analysis of the deposited data

Results flagged for a closer look

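For Klf4 the effect of the MT2Mm knockout at the early 2-cell stage exceeded that at the late 1-cell stage by 0.68 on the log2 scale, by the interaction term. For Klf17 the same difference was 0.50.

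The LncR-3363 controls and the KD-1cell embryos are groups of 4 libraries. In 4 of 17 cases of a member in 1 of these groups, cases that share the same 8 libraries, 1 library lay far from the other 3. For values that vary freely chance gives about 1 such case in 20. Klf4 reached 7.67 FPKM in 1 LncR-3363 control library, with the other 3 at 5.12 to 5.40. The other instances were single values just above 0 where the other 3 libraries were at 0, so that any value would stand apart: Nanog at 0.0281 FPKM in a control and 0.0588 in a KD-1cell library, and Tdgf1 at 0.0172 in a control library.

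The single KD-2cell library entered no comparison. Among the 9 members, it lay above every control library only for Pou5f1 with 103 FPKM and for Klf2 with 0.923 FPKM. The highest controls had 101 and 0.649 FPKM. Klf2 was thus under 1 FPKM in each of these libraries. The share of all rows for which this library lay above every control was not taken, and a single library is no test.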

How the results depend on the processing

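No change of direction was found in any called member result. Of 1122 values under alternatives for 95 member results, 1070 kept their status as called or not called, 35 lost a call and 17 gained one. Of the 95 results 78 kept their status under all that were run. Kept status includes results called in neither fit, among them genes at or near 0 in both groups, so these counts do not measure how firm the calls are. Over the members called, morula against 8-cell gave 5 in place of 3 with only its 2 groups in the fit. For 20 against 17 hours the count of 2 became 0 with no filter, and 1 with only 2 groups, with median-of-ratios scaling, with protein-coding scaling and with the replicate block. The LncR-3363 comparison gave 1 with no filter. Leaving out each replicate in turn gave 0 to 1 calls for zygote against MII oocyte, 1 to 3 for 17 against 14 hours and 0 to 1 for 20 against 17 hours.

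Libraries of equal replicate number share only that number: their deviations from the group means correlated at -0.0889 to 0.093. The replicate block changed no other count of called members. No block value was made for the 4-cell steps, whose column numbers match no sample, or for the knockdown, whose columns carry only a group. Depth is unknown, so a level listed at 0 has no limit to set beside it, and changes of genes under 1 FPKM are understated by the pseudocount.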
